A study of Mus musculus with 9 samples.

Results

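The dystrophin-associated complex genes are Dmd, Utrn, Dag1, Dtna, Sgca, Sgcb, Sgcd and Sspn. They were taken by symbol from a table of estimated read counts, where all 8 were found among 17314 genes and all 8 were among the 13044 genes that passed the filter on low counts. RNA was measured by sequencing of polyadenylated RNA in gastrocnemius, the large calf muscle, of mice aged 6, 15 and 21 months, with 3 mice per age and 1 library per mouse, and the ages are the only difference between the groups that the labels name. The sources used here give no strain, sex or treatment. The p-values of edgeR and DESeq2 set a difference between ages against the spread between these 9 mice within ages, with information shared over genes. The libraries held 15354396 to 17317856 counts. All 10 skeletal muscle markers examined, such as Acta1 and Ckm, were detected in every library and together made up 110030 to 162190 counts per 1000000 (CPM, with library sizes scaled by TMM factors). Slow and oxidative fibre genes varied between mice of one age. Myh2, the myosin of fast oxidative fibres, ran from 0.751 CPM in mouse 2 at 6 months to 4395 CPM in mouse 1 at 15 months, with 3642 CPM in mouse 3 at 21 months. The 10 markers of slow and oxidative fibres include Myh2. They summed to 95.5 to 1915 CPM at 6 months, 1221 to 5610 CPM at 15 months and 1317 to 4755 CPM at 21 months. Myh2 made up most of the highest sum at each age, with 1611, 4395 and 3642 CPM. The slow myosin Myh7 ran from 0.438 to 166 CPM. None of the 10 was at 0, and all 10 had log2 changes above 0 at 21 and at 15 against 6 months. Of these markers, 5 and 6 had an unadjusted p under 0.05 in edgeR. Their part in the members' values was not tested. The 3 libraries first named for Myh2 are called outlying here. Member values at 21 and at 15 against 6 months are also given without them, or with total count scaling. This is done where either moves the values by over 1.5 times or turns their sign.

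Dystrophin, the product of Dmd, links the actin cytoskeleton of the muscle fibre to dystroglycan in the plasma membrane, and dystroglycan, made from Dag1, binds laminin in the basement membrane outside. The sarcoglycans and sarcospan form a second group of membrane proteins that hold this link together, and dystrobrevin binds dystrophin on the inner side and carries syntrophins with it. Utrophin is a close relative of dystrophin that, in adult muscle, is concentrated at neuromuscular and myotendinous junctions and is also made by blood vessel cells. Loss of dystrophin causes Duchenne muscular dystrophy, and loss of a sarcoglycan causes forms of limb-girdle muscular dystrophy in people.

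Each count stands for every transcript of a gene, which matters most for Dmd. In the GENCODE annotation of the mm10 assembly, its full-length coding transcript has 79 exons and 14910 bases. A pair of short coding transcripts, of 4438 and 1858 bases, start 2099510 bases downstream and share 98.9 and 97.5% of their exon bases with the full-length one, so a count for Dmd does not separate them. Sequences at an upstream and a downstream start of Dmd are shown because a single row of counts pools transcripts from both. Those of Sgca and Dag1 are shown because Sgca is made mainly by striated muscle. Dag1, in contrast, is made by many tissues and had one of the larger age differences. Windows were listed for 7 of the 8 members, all but Dtna. They run from 250 bases before to 50 bases after a start annotated by RefSeq (GRCm38.p6, the same assembly as mm10), 5′ to 3′ on the gene's strand, with E-boxes (CANNTG, the letters that muscle regulators such as MyoD bind) and GC boxes (GGGCGG on either strand) in capitals.
Dmd, upstream start, chrX:82948620-82948919, plus strand: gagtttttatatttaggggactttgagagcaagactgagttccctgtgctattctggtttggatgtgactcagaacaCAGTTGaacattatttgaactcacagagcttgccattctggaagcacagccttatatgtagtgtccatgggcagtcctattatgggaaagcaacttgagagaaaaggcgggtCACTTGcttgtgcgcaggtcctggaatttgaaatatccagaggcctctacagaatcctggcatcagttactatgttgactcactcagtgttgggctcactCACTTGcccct
Dmd, downstream start, chrX:85048045-85048344, plus strand: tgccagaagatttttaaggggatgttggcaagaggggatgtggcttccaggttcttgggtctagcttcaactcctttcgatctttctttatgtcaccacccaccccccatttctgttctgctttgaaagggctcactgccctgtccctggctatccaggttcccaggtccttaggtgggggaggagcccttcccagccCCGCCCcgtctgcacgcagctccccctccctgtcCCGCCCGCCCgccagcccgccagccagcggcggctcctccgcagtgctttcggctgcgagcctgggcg
Sgca, chr11:94976278-94976577, minus strand: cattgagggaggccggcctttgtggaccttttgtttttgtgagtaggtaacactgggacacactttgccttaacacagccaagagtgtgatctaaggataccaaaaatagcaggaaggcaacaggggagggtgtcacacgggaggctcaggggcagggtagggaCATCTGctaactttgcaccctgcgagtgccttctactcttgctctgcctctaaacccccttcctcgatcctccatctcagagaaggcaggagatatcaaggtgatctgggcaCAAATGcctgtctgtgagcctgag
Dag1, chr9:108263909-108264208, minus strand: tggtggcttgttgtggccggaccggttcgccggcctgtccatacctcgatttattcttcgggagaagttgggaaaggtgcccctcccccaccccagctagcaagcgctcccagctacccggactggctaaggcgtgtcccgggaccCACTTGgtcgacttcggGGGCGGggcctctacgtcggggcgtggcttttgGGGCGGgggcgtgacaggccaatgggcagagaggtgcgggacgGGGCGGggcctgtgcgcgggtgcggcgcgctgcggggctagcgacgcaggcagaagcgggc
The upstream Dmd window held 3 E-boxes and 0 GC boxes and was 45.7% G or C. No window was listed where the Dmd gene itself begins, at 82814664. The downstream window held 0 E-boxes and 3 GC boxes, 2 of which overlap each other, and was 62.7% G or C. It ends before base 85048413, where the short coding transcripts start in GENCODE. The Sgca window held 2 E-boxes and 0 GC boxes, and the Dag1 window shown held 1 E-box and 3 GC boxes at 69.7% G or C. Another listed Dag1 window, chr9:108263766-108264065, not shown, held 1 E-box and 4 GC boxes at 75.3% G or C. Of 32851 windows of this length in the RefSeq table, 72.3% held an E-box and 35.7% a GC box, so these matches describe the sequences and show no bound site.

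Levels of different genes were compared per kilobase (kb) of the longest coding transcript, as the mean of 9 libraries. Dag1 stood highest at 90.6 CPM per kb, followed by Sgca at 83.1, Sgcd at 55.3, Sgcb at 46.6, Sspn at 25.2 and Dtna at 23.2 CPM per kb. Dmd stood at 7.86 and Utrn at 4.41 CPM per kb. Dag1 and Sgca overlapped over the libraries, as did Sgcd and Sgcb, and Sspn and Dtna. Dmd and Utrn were each apart from every other member, with 7.16 to 8.78 CPM per kb for Dmd and 3.60 to 5.96 CPM per kb for Utrn. Their longest coding transcripts, of 14910 and 12382 bases, are also the longest of the members, and the next, of Dtna, has 6295 bases. Coverage along transcripts is not known from the counts, so their levels per kb may not be comparable with those of shorter transcripts. With all annotated exons of a gene as its length, an alternative chosen after seeing the data, the values were 4.92 for Dmd, 3.19 for Utrn, 16.4 for Sgcd and 8.62 CPM per kb for Dtna. On that length Sgcd stood below Sgcb at 43.5 and Sspn at 22.8 CPM per kb, and Sgca, at 82.6, stood above Dag1, at 80.7 CPM per kb.

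**Figure D1:**
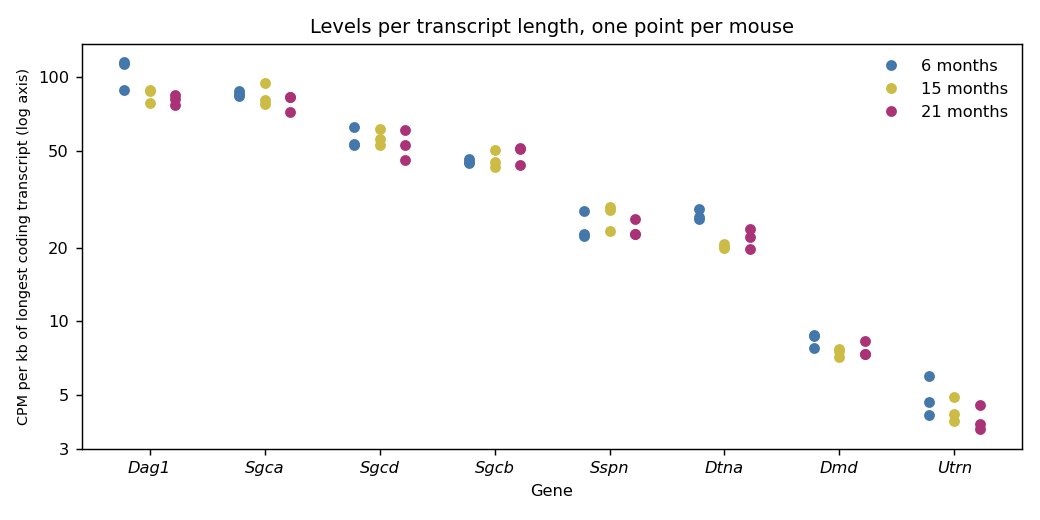
Level of each member per kilobase of its longest coding transcript (CPM per kb, log axis), with 1 point per mouse and ages side by side from 6 to 21 months. Dmd and Utrn sit below all other members in every library, with means of 7.86 and 4.41 CPM per kb against 83.1 for Sgca. Their transcripts are also the longest of the members, at 14910 and 12382 bases.

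Across the ages, 0 of the 8 members passed an adjusted p of 0.05 in edgeR in any of the 3 pairwise comparisons or in the test of all 3 ages together. The background was close to that. edgeR called 0.0153% of tested genes at 21 against 6 months, 0.00767% at 15 against 6 months, 0% at 21 against 15 months and 0% across the 3 ages. At an unadjusted p under 0.05, Dag1 and Dtna passed at 21 against 6 months, at 15 against 6 months and across the 3 ages, and no member passed at 21 against 15 months. That is 2 of 8 members, both lower in the older mice. Over all tested genes the share at that threshold was 10.6% at 21 against 6 months (5.5% lower), 10.3% at 15 against 6 months (5.38% lower), 1.82% at 21 against 15 months and 8.55% across the 3 ages. The comparisons with 6 months share the same 3 young mice, so their values are not independent. DESeq2, run on the same counts, called 1 member, Dtna, at 15 against 6 months and across the 3 ages, where it called 0.791 and 1.47% of the genes it adjusted. It called 0 members at 21 against 6 months, with 1.41% of genes called, and 0 at 21 against 15 months, with 0.0174% of genes called.

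**Figure D2:**
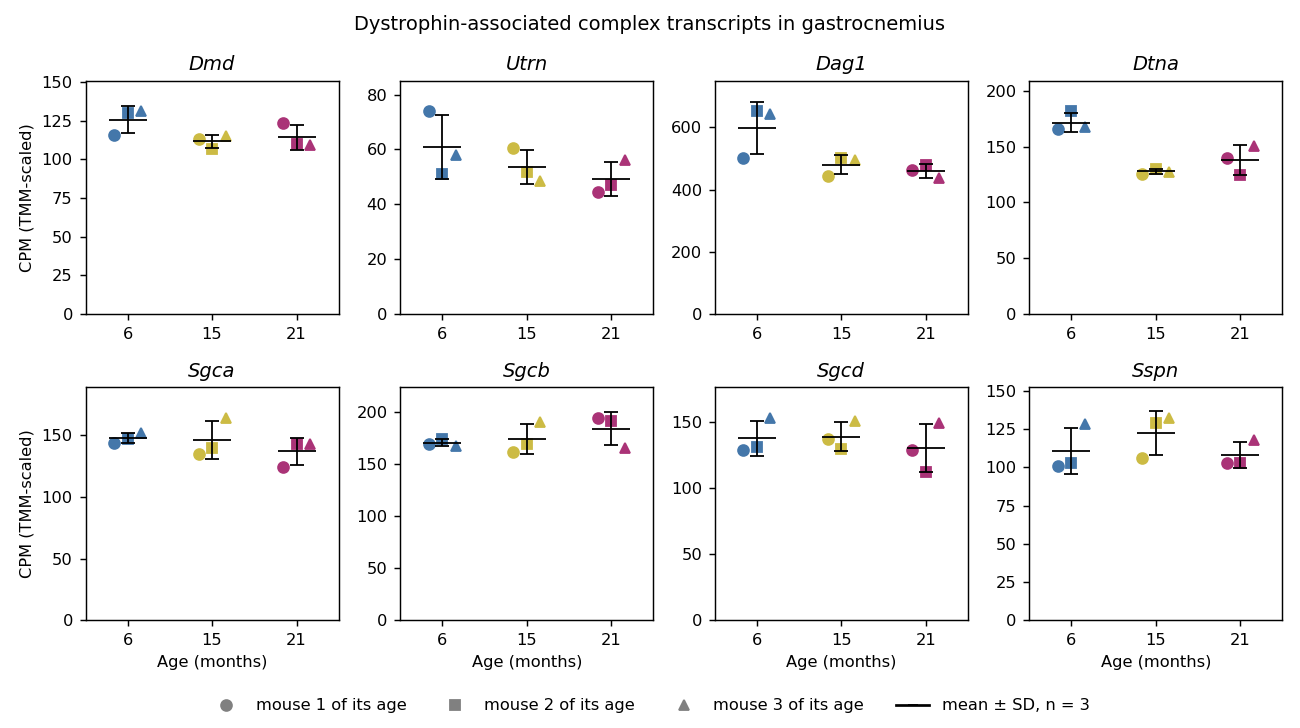
CPM of the 8 members at 6, 15 and 21 months, with 1 point per mouse, shaped by mouse number, and the mean ± SD of 3 mice as bars. Dtna at 6 months lies at 166 to 182 CPM, above all 6 older mice at 124 to 151 CPM, while the sarcoglycans and Sspn at 15 months overlap with 6 months.

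Dmd (ID 13405 in Entrez, on chromosome X, 82814664 to 85205050, mm10) stood at 116, 130.2 and 131 CPM at 6 months, at 113, 107 and 115 CPM at 15 months and at 124, 109.6 and 109.6 CPM at 21 months. All 3 mice of 15 months were below those of 6 months, by about 1 CPM at the nearest pair, and the mice of 21 months overlapped with both. For 15 against 6 months the log2 change was -0.17 (SE 0.09, 95% interval -0.38 to 0.04, adjusted p = 0.565 in edgeR). At 21 against 6 months it was -0.14 (SE 0.09, interval -0.35 to 0.07, adjusted p = 0.636). With total count scaling these values were -0.10 and -0.06, and without the 3 outlying libraries the one at 21 against 6 months was -0.08. Dmd was among the members that varied least, since its highest library was 1.23 times its lowest, where the median was 1.38 over the 2766 tested genes in the members' range of levels.

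Utrn (ID 22288 in Entrez, on chromosome 10, 12382187 to 12869888) varied most, with 73.8, 51.1 and 57.9 CPM at 6 months, 60.4, 51.8 and 48.5 CPM at 15 months and 44.6, 47.0 and 56.2 CPM at 21 months. Its highest library was 1.66 times its lowest, and all ages overlapped. The log2 change was -0.31 at 21 against 6 months (SE 0.15, 95% interval -0.64 to 0.03, adjusted p = 0.496 in edgeR) and -0.19 at 15 against 6 months (SE 0.15, interval -0.52 to 0.15, adjusted p = 0.705). Leaving out 1 library moved these values to between -0.42 and -0.15 and between -0.30 and -0.03. Mouse 1 at 6 months moved both most. Without it the values were -0.15 and -0.03, whereas without the 3 outlying libraries they were -0.52 and -0.39. With total count scaling Utrn stood at -0.11 at 15 against 6 months.

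Markers of macrophages and endothelial cells were also high in the mouse with the most Utrn, and those of smooth muscle and pericytes, the other cells of vessel walls, were not. The 10 macrophage markers summed to 289 CPM in mouse 1 at 6 months and to 192 and 186 CPM in the others of its age, to 96.2 to 213 CPM at 15 months and to 124 to 199.97 CPM at 21 months. The 10 endothelial markers summed to 869.7 CPM in that mouse and to 623 and 672 CPM in the others of its age, to 666 to 879.9 CPM at 15 months and to 664 to 805 CPM at 21 months. The 10 smooth muscle and pericyte markers summed to 1459 CPM in that mouse and to 1145 and 1479.5 CPM in the others of its age, to 1465 to 1639.6 CPM at 15 months and to 1341 to 1580.2 CPM at 21 months, and 8 of 10 had log2 changes above 0 in both comparisons with 6 months. Rgs5 and Abcc9 made up most of the smooth muscle and pericyte sum, with averages of 655 and 433 CPM at 6 months. None of the macrophage, endothelial or smooth muscle and pericyte markers was at 0 in any library. All 10 macrophage markers had log2 changes below 0 in both comparisons with 6 months, as did 6 of 10 endothelial markers at 21 and 3 of 10 at 15 against 6 months. The 11 markers of the neuromuscular junction overlapped between all ages, with sums of 393 to 478 CPM at 6 months, 364 to 493 CPM at 15 months and 364 to 588 CPM at 21 months. The part of these cells in the Utrn values was not tested. In a piece of whole muscle, fewer cells of a type and less RNA per cell cannot be told apart. Per kb, Utrn stood at 0.590 ± 0.156 of Dmd at 6 months, 0.578 ± 0.0683 at 15 months and 0.523 ± 0.0919 at 21 months (SD, n = 3 each), so the ratio of utrophin to dystrophin transcripts overlapped between all ages.

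**Figure D3:**
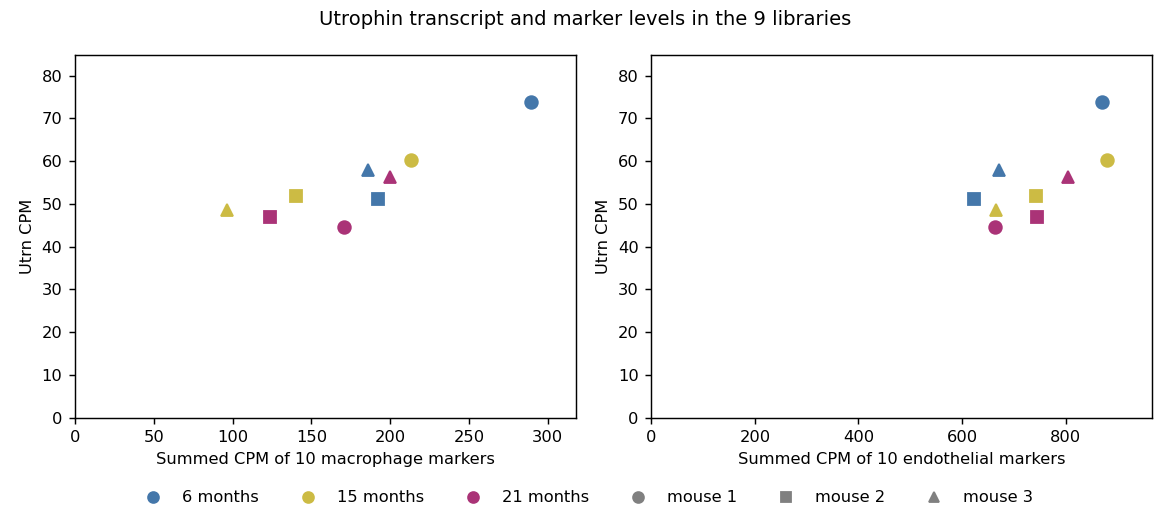
Utrn level (CPM) against the summed CPM of 10 macrophage markers (left) and 10 endothelial markers (right) in the 9 libraries, coloured by age and shaped by mouse number. Mouse 1 at 6 months, with 73.8 CPM of Utrn, has the highest macrophage sum, at 289 CPM, and a high endothelial sum, at 869.7 CPM.

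Dag1, the gene of the laminin receptor dystroglycan (ID 13138 in Entrez, on chromosome 9, 108204861 to 108263977), stood at 502, 651 and 642 CPM at 6 months, at 445, 500.5 and 496 CPM at 15 months and at 463, 480.2 and 437 CPM at 21 months. Mice 2 and 3 of the youngest age were high. Mouse 1 of that age was barely above the older mice, so the groups were separate by less than 2 CPM between 6 and 15 months. Dag1 at 21 months averaged 459.8 ± 21.98 CPM, against 598 ± 83.6 CPM at 6 months (SD, n = 3 each), a log2 change of -0.38 (SE 0.13, 95% interval -0.66 to -0.10, adjusted p = 0.311 in edgeR and 0.125 in DESeq2). The log2 change at 15 against 6 months was -0.32 (SE 0.12, interval -0.59 to -0.04, adjusted p = 0.419 in edgeR and 0.335 in DESeq2). At 21 against 15 months it was -0.06 (SE 0.12, interval -0.34 to 0.21).

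Leaving out the 3 outlying libraries, among them the 6-month mouse with the highest Dag1, gave -0.28 at 21 against 6 months and -0.20 at 15 against 6 months. The second of these is over 1.5 times smaller than with all libraries. The 10 markers of fibro-adipogenic progenitors, the connective tissue cells of muscle, summed to 2940, 4213 and 3775 CPM in mice 1, 2 and 3 at 6 months, to 2818 to 2913 CPM at 15 months and to 2691 to 2853 CPM at 21 months. None of the 10 was at 0 in any library, 6 of 10 had log2 changes below 0 at 21 against 6 months, while 5 of 10 did at 15 against 6 months, and the sum was highest in the 2 libraries where Dag1 was highest. Gsn and Dcn, picked out after their values were seen, carried most of the difference in the sum. Gsn averaged 1339 CPM at 21 months, against 1944 CPM at 6 months, and Dcn averaged 805 CPM at 21 months, against 1049 CPM at 6 months. The part of these cells in the Dag1 values was not tested.

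No sarcoglycan, nor sarcospan, was called in any comparison by edgeR or DESeq2, and with all libraries their log2 changes in edgeR lay between -0.18 and 0.14. Sgca, which encodes alpha-sarcoglycan and is made mainly by striated muscle (ID 20391 in Entrez, on chromosome 11, 94962777 to 94976327), stood at 144, 147 and 152 CPM at 6 months, at 134, 139.6 and 164 CPM at 15 months and at 124, 143 and 143 CPM at 21 months. The mice of 21 months were all below those of 6 months, by under 1 CPM at the nearest pair. The log2 change was -0.11 at 21 against 6 months (SE 0.10, 95% interval -0.34 to 0.12, adjusted p = 0.751 in edgeR) and -0.01 at 15 against 6 months (SE 0.10, interval -0.25 to 0.22, adjusted p = 0.974). That second value was above 0 with total count scaling, at 0.06, and without the 3 outlying libraries, at 0.04. With total count scaling the first was -0.03.

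Sgcb encodes beta-sarcoglycan, which is made by many tissues (ID 24051 in Entrez, on chromosome 5, 73632749 to 73647737). It stood at 169.7, 174 and 168 CPM at 6 months, at 162, 169.8 and 190.3 CPM at 15 months and at 194, 192 and 166 CPM at 21 months. It was the single member with a log2 change above 0 at 21 against 6 months, at 0.11 (SE 0.10, 95% interval -0.12 to 0.33, adjusted p = 0.747 in edgeR), and the ages overlapped. At 15 against 6 months it stood at 0.03 (SE 0.10, interval -0.20 to 0.25, adjusted p = 0.943). Without the 3 outlying libraries Sgcb stood at 0.19 and 0.09 in these comparisons, and with total count scaling at 0.19 and 0.10.

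Sgcd, the gene of delta-sarcoglycan (ID 24052 in Entrez, on chromosome 11, 46971077 to 47989451), stood at 129, 131 and 153 CPM at 6 months, at 137, 129 and 151 CPM at 15 months and at 129, 112 and 149 CPM at 21 months. Its log2 changes were -0.08 (SE 0.12, 95% interval -0.36 to 0.19, adjusted p = 0.862 in edgeR) at 21 against 6 months and 0.01 (SE 0.12, interval -0.26 to 0.29, adjusted p = 0.979) at 15 against 6 months. Without the 3 outlying libraries they were -0.22 and -0.01, and with total count scaling -0.002 and 0.08. Sspn, the gene of sarcospan, a membrane protein bound to the sarcoglycans (ID 16651 in Entrez, on chromosome 6, 145931873 to 145965225), stood at 101, 103 and 128 CPM at 6 months, at 106, 129 and 132 CPM at 15 months and at 103, 103 and 118 CPM at 21 months. Its log2 change was -0.04 (SE 0.13, interval -0.32 to 0.25, adjusted p = 0.949) at 21 against 6 months, where it was 0.04 with total count scaling and -0.15 without the 3 outlying libraries, and it was 0.14 (SE 0.13, interval -0.14 to 0.43, adjusted p = 0.735) at 15 against 6 months. In both genes the mouse numbered 3 was the highest of its age at 6, 15 and 21 months. Over all genes the correlations of same-numbered mice took both signs, and whether mice of one number shared a batch is not known. An antisense transcript, Sspnos, shares 69 exon bases with Sspn. With the strand setting of the counting not stated, reads of that stretch cannot be assigned to one of them.

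Set against Sgca per kb, Sgcb, Sgcd, Sgce and Sspn had ratios that overlapped between all ages. Sgcb stood at 0.528 ± 0.0204 of Sgca at 6 months, 0.544 ± 0.0131 at 15 months and 0.617 ± 0.0919 at 21 months (SD, n = 3 each). Sgcd stood at 0.657 ± 0.0467, 0.672 ± 0.0384 and 0.673 ± 0.103 of Sgca at the same ages. Epsilon-sarcoglycan, made from Sgce and better known in smooth muscle and brain, stood far lower, at 0.0850 ± 0.00586, 0.0891 ± 0.00988 and 0.0960 ± 0.0165 of Sgca. Sspn stood at 0.287 ± 0.0315, 0.321 ± 0.0275 and 0.303 ± 0.0233 of Sgca.

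Dtna encodes alpha-dystrobrevin, the cytoplasmic member that binds dystrophin and syntrophins (ID 13527 in Entrez, on chromosome 18, 23310006 to 23659719). It stood at 166, 182 and 168 CPM in the mice of 6 months, at 126, 130.4 and 127 CPM at 15 months and at 139.6, 124 and 151 CPM at 21 months. The 3 youngest mice were above all 6 older ones, and the mice of 15 months lay within 5 CPM of each other. At 15 months Dtna averaged 128 ± 2.42 CPM, against 172 ± 8.71 CPM at 6 months (SD, n = 3 each), a log2 change of -0.43 (SE 0.10, 95% interval -0.64 to -0.21). Its adjusted p was 0.245 in edgeR, where it ranked 66 of 13044 genes by p, and 0.016 in DESeq2. At 21 months it averaged 138 ± 13.3 CPM, a log2 change of -0.31 against 6 months (SE 0.10, interval -0.53 to -0.10, adjusted p = 0.269 in edgeR and 0.141 in DESeq2). Between 21 and 15 months the log2 change was 0.11 (SE 0.10, interval -0.10 to 0.33), and these ages overlapped. Leaving out the 3 outlying libraries takes a mouse from each age. Between 21 and 15 months it moved Dtna from 0.11 to 0.04 and Dmd from 0.03 to 0.07. Sgca moved from -0.09 to -0.18, Sgcd from -0.10 to -0.21 and Sspn from -0.18 to -0.34.

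A two-sided exact permutation test of CPM gave p = 0.1 for Dtna in both comparisons with 6 months, the smallest value that 3 against 3 mice allow. Any gene whose groups do not overlap gets this value, so it only restates that separation. Dag1 had it in both comparisons, Sgca at 21 against 6 months and Dmd at 15 against 6 months. The log2 change of Dtna at 15 against 6 months ran from -0.45 to -0.35 over 17 other settings and was -0.37 without the 3 outlying libraries. An antisense transcript, Gm47898, shares 90 exon bases with Dtna, with the same limit as for Sspn. The 7 markers of satellite cells, the stem cells of muscle, summed to 104 to 155 CPM at 6 months, 88.8 to 95.01 CPM at 15 months and 82.7 to 105 CPM at 21 months, with none at 0. Of these, 5 of 7 had log2 changes below 0 in each comparison with 6 months. Most of the difference in the sum came from Sdc4 and Chodl, picked out after their values were seen. Sdc4 averaged 62.2 CPM in the youngest mice, against 37.6 and 38.3 CPM in those of 15 and 21 months. Chodl averaged 23.3 CPM, against 16.5 and 17.0 CPM. The 2 markers above 0 were Pax7, with log2 changes of 0.18 and 0.12 for these older ages, and Vcam1, with 0.22 and 0.29. The part of satellite cells in the Dtna values was not tested.

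**Figure D4:**
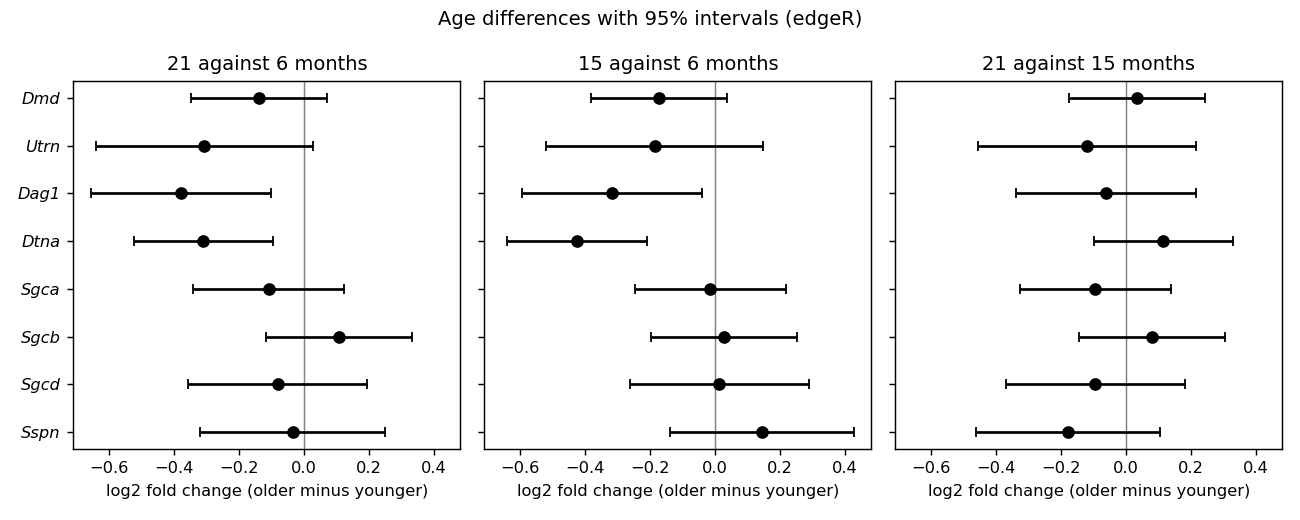
Log2 change (older minus younger) of each member with its 95% interval from edgeR in the 3 comparisons of ages. The intervals of Dag1 and Dtna lie below 0 at 21 against 6 months (-0.66 to -0.10 and -0.53 to -0.10) and at 15 against 6 months (-0.59 to -0.04 and -0.64 to -0.21), and those of the other members include 0.

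Taking the 8 members as a list, 7 had a log2 change below 0 at 21 against 6 months, where 52% of all tested genes did, and the median was -0.12, against -0.01 over all tested genes. At 15 against 6 months 5 of 8 were below 0, where 51.4% of all genes were, with a median of -0.09. At 21 against 15 months 5 of 8 were below 0 (50.8% of all genes), with a median of -0.08. With total count scaling 6 of 8 were below 0 at 21 against 6 months, with a median of -0.04, and 4 of 8 at 15 against 6 months, with a median of -0.02. Without the 3 outlying libraries 7 of 8 were below 0 at 21 against 6 months, with a median of -0.19. The 10 skeletal muscle markers had 7 of 10 below 0 in both comparisons with 6 months, with medians of -0.18 at 21 and -0.17 at 15 against 6 months. The 3 above 0 in both were Des, Tcap and Mb, with Mb at 1.30 and 1.65. The part of the muscle markers in the members' values was not tested. The ages compared did not overlap for Dag1, Sgca and Dtna at 21 against 6 months and for Dmd, Dag1 and Dtna at 15 against 6 months, all lower in the older mice. That is 3 of 8 members each time, where 8.31 and 7.14% of tested genes were lower without overlap. The share of tested genes without overlap in either direction is larger and is not given here. No member was separate at 21 against 15 months, where 3.3% of tested genes were lower without overlap. By mean CPM the members lay between the 77.2 and 98.4 percentiles of tested genes.

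Other subunits and partners of the complex gave values on both sides of 0. Of 8 tested genes, 3 were above and 5 below 0 at 21 against 6 months, with a median of -0.08, and at 15 against 6 months the median was 0.05. None (0) passed an adjusted p of 0.05 in edgeR or DESeq2, and 1 higher and 1 lower gene had an unadjusted p under 0.05 in each comparison. Nos1, a nitric oxide synthase that the complex holds at the muscle membrane, averaged 115 ± 7.78 CPM at 21 months, against 95.2 ± 11.5 CPM at 6 months (SD, n = 3 each), a log2 change of 0.27 (SE 0.11, adjusted p = 0.428 in edgeR), and was 0.35 (SE 0.11, adjusted p = 0.357) at 15 against 6 months. All older mice had more Nos1 than the 6-month mice.

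Ligands of dystroglycan and the laminins of the basement membrane had 8 of 9 tested genes below 0 at 21 against 6 months, with a median of -0.09, and 6 of 9 at 15 against 6 months, with a median of -0.13. None (0) passed in edgeR or DESeq2, and 1 gene at 21 against 6 months and 0 at 15 against 6 months had an unadjusted p under 0.05. Lamb2, a laminin beta chain found at neuromuscular junctions and in vessels, averaged 144 ± 15.8 CPM at 21 months, against 179 ± 18.2 CPM at 6 months (SD, n = 3 each), a log2 change of -0.32 (SE 0.12, adjusted p = 0.386 in edgeR). At 15 against 6 months it stood at -0.22 (SE 0.12, adjusted p = 0.575), and at -0.14 without mouse 2 at 6 months. Hspg2, the gene of perlecan and the most abundant of the list, stood at -0.09 (SE 0.14, adjusted p = 0.874) at 21 against 6 months.

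Enzymes that build the sugar by which dystroglycan binds laminin had 9 of 18 tested genes above 0 at 21 against 6 months, with a median of -0.004, and 11 of 18 at 15 against 6 months, with a median of 0.04. In edgeR 0 passed, with 1 gene at an unadjusted p under 0.05 at 21 against 6 months and 4 at 15 against 6 months, and DESeq2 called 0 and 1. Gmppb, which makes the GDP-mannose that this sugar needs, had a mean CPM of 3.10 ± 0.941 at 6 months, 6.77 ± 2.36 at 15 months and 5.99 ± 0.630 at 21 months (SD, n = 3 each). The log2 change of this gene was 0.95 (SE 0.28, adjusted p = 0.248 in edgeR and 0.0817 in DESeq2) at 21 against 6 months and 1.12 (SE 0.27, adjusted p = 0.250 in edgeR and 0.0308 in DESeq2) at 15 against 6 months. Both older groups were above the 6-month mice without overlap. B3galnt2, the most abundant of these enzymes by CPM, stood at -0.03 (SE 0.19, adjusted p = 0.977) at 21 against 6 months and was above 0 with total count scaling, at 0.05, and without the 3 outlying libraries, at 0.16.

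The integrin laminin receptor of muscle and its adaptors had 7 of 13 tested genes above 0 at 21 against 6 months, with a median of 0.01, and 9 of 13 at 15 against 6 months, with a median of 0.06. None (0) passed in edgeR or DESeq2, and 1 gene at 21 against 6 months and 0 at 15 against 6 months had an unadjusted p under 0.05. Vcl, the gene of the adhesion protein vinculin, averaged 264 ± 9.37 CPM at 21 months, against 225 ± 12.0 CPM at 6 months (SD, n = 3 each), a log2 change of 0.23 (SE 0.09, adjusted p = 0.386 in edgeR), with no overlap. Itgb1, the integrin beta chain, stood at 0.17 (SE 0.10, adjusted p = 0.581) at 21 against 6 months, and Lims1, an adaptor of integrin-linked kinase, stood at 0.44 (SE 0.20, adjusted p = 0.494) at 15 against 6 months. Without mouse 1 at 15 months the Lims1 value was 0.16.

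Genes of the costamere, the rib-like link between the outer myofibrils and the membrane, and of membrane repair had 11 of 15 tested genes above 0 at 21 against 6 months, with a median of 0.06, and 8 of 15 at 15 against 6 months, with a median of 0.03. In edgeR 0 passed, with 3 genes at an unadjusted p under 0.05 at 21 against 6 months and 1 at 15 against 6 months, and DESeq2 called 1 in each. Capn3, a muscle protease whose loss causes a limb-girdle muscular dystrophy in people, averaged 203 ± 5.92 CPM at 21 months, against 261 ± 15.7 CPM at 6 months (SD, n = 3 each). The log2 change of this gene was -0.36 (SE 0.09, adjusted p = 0.180 in edgeR and 0.00881 in DESeq2) at 21 against 6 months and -0.32 (SE 0.09, adjusted p = 0.315 in edgeR and 0.0497 in DESeq2) at 15 against 6 months, so DESeq2 called it and edgeR did not. Des, the gene of the intermediate filament desmin, stood at 0.09 (SE 0.16, adjusted p = 0.895) at 21 against 6 months.

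**Figure D5:**
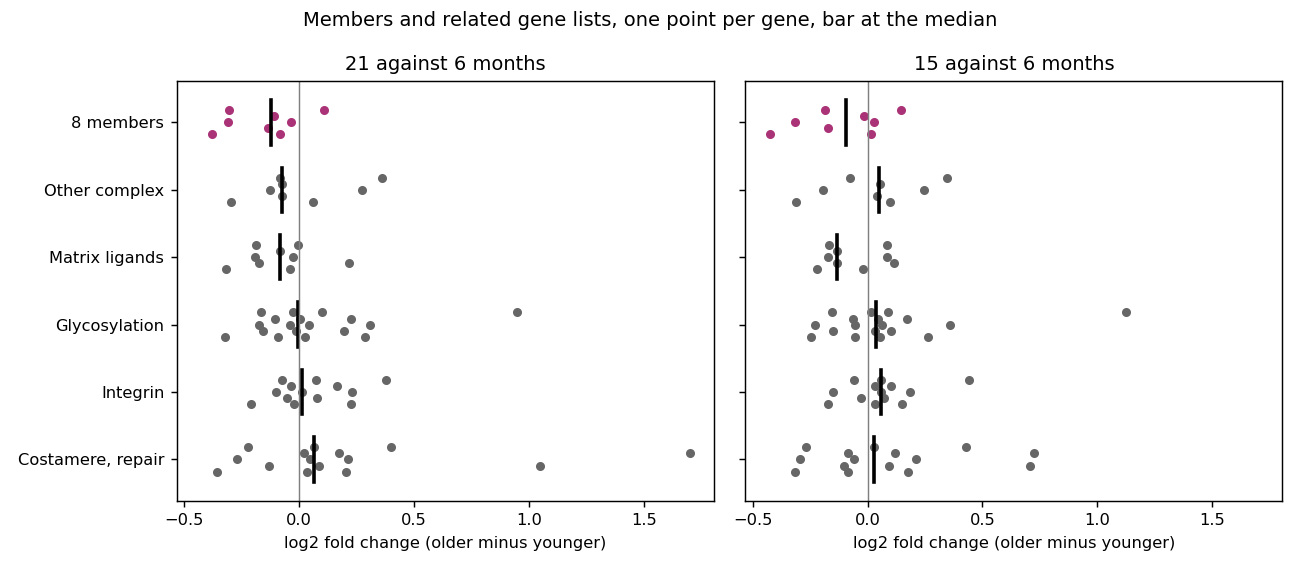
Log2 change (older minus younger) of the 8 members and of the tested genes in 5 related lists at 21 against 6 months (left) and 15 against 6 months (right), with 1 point per gene and a bar at each median. The medians at 21 against 6 months run from -0.12 for the members to 0.06 for costamere and repair genes, and the glycosylation gene farthest right is Gmppb, at 0.95 and 1.12. The costamere gene at 1.70 in the left panel, picked out after its value was seen, is Krt18, which averaged 1.90 CPM at 21 months, against 0.584 CPM at 6 months (adjusted p = 0.420 in edgeR).

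The members did not share one pattern across the 9 libraries. Likeness was measured as the root mean square difference of log2 CPM after each gene was standardised over the libraries, where 0 means the same pattern. Among the 28 pairs of members, Dmd and Dag1 were nearest at 0.64, followed by Dmd and Dtna at 0.72 and Dag1 and Dtna at 0.72, and Sgcd and Sspn stood at 0.76. Utrn and Sgcb were farthest apart at 1.76. The nearest genes were sought among 9760 with a mean of at least 5 CPM, leaving out predicted genes, pseudogenes and clone-like symbols. Nearest to Dag1 were Col4a4 (0.20) and Stac3 (0.29), and to Dmd Eea1 (0.22) and Stam (0.24). Dtna was nearest to Rnf215 (0.30) and Pgk1 (0.36). All of these were closer than any other member. Utrn was nearest to Grn (0.24) and Nos3 (0.32). Sgca was nearest to Arhgef11 (0.33) and Snx12 (0.36), Sgcb to Utp15 (0.23) and Rmnd5a (0.26), Sgcd to Met (0.42) and Scin (0.46), and Sspn to Ercc6 (0.21) and Zfp612 (0.24). With 9 libraries and so many genes, near matches of this size are a description of these libraries.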

How the data were processed

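The authors deposited 1 table of estimated counts (expected counts, not all whole numbers) for 17314 genes in 9 libraries of gastrocnemius RNA. Between 90.0 and 90.7% of values in a library were whole within 0.005. TRIzol extraction and oligo(dT) bead selection preceded sequencing, per the labels' protocols. Per the submitters' processing notes the assembly is mm10. Aligner, counter and strand setting were not given in the sources used here. Columns were matched to samples by life stage and number in the titles.

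Counts were rounded, filtered with filterByExpr (minimum count 10) and scaled with TMM factors (0.923 to 1.05). A model of age over the 9 libraries was tested by quasi-likelihood in edgeR 4.0.16 (R 4.3.3) on 13044 genes, with Benjamini-Hochberg adjustment over all of them and a threshold of 0.05. Each SE was computed from the log2 change and its quasi-likelihood F statistic, and the 95% intervals come from these SEs. The common biological coefficient of variation was 0.164. Alternatives were DESeq2 1.42.0, RLE and total count scaling, no filter, a filter of 5 CPM in 3 libraries, blocks by replicate number, fits of only the ages compared, leaving out each library, and leaving out 3 outlying libraries (mouse 2 at 6, mouse 1 at 15 and mouse 3 at 21 months). The procedure was tested on simulated data with changes larger than any seen in the members. How well it recovers changes as small as theirs was not tested.

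The members, lists and alternatives were chosen with earlier results of these data known. Named besides the members were, per list, the genes with the smallest p at 21 and at 15 against 6 months and the highest CPM, any gene past the threshold, and for each member the 2 genes of nearest pattern. Some genes that these rules name are not reported here. Marker lists shown beside Dag1, Dtna and Utrn were picked among 10 after their values were seen. Coordinates come from RefSeq (GRCm38.p6, 17188 of 17314 IDs matched), lengths and exon overlaps from GENCODE M21. Low genes carry counting error besides the spread between mice.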

Additional observations from a re-analysis of the deposited data

How the results depend on the processing

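Over 17 alternatives, 393 of 408 member fold changes kept the sign of the reported value and 1 passed an adjusted p of 0.05, that of Dtna at 15 against 6 months in DESeq2 (0.016). No other alternative called a member in a comparison of 2 ages. With DESeq2 the count of members called was 1 at 15 against 6 months and 1 across the 3 ages, and over all genes it was 196 at 21 against 6 months, 110 at 15 against 6 months, 3 at 21 against 15 months and 200 across the 3 ages, against 2, 1, 0 and 0 in edgeR. The edgeR count of all genes at 21 against 6 months was 1 with total count scaling, 30 with no filter and 5 with the replicate block. At 15 against 6 months it was 0 with total count scaling, the 5 CPM filter, the replicate block or only the ages compared. Across the 3 ages it was 5 with no filter and 5 with the replicate block. Leaving out 1 library gave 0 to 42 genes at 21 against 6 months, 0 to 10 at 15 against 6 months, 0 to 0 at 21 against 15 months and 0 to 10 across the 3 ages, the counts of 42 and 10 without mouse 3 at 6 months. The labels name no pairing of mice by replicate number. The correlation of deviations of same-numbered mice ran from -0.47 to 0.43 over the 9 pairs. With so few mice per age this does not exclude a batch shared by number. The block changed no call of a member.

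Signs that turned were those of small values that did not pass in any of these settings. With total count scaling Sspn stood at 0.043 and B3galnt2 at 0.052 at 21 against 6 months, and Sgca at 0.056 at 15 against 6 months. Without the 3 outlying libraries B3galnt2 stood at 0.16 at 21 against 6 months, and Sgca at 0.039 and Sgcd at -0.0096 at 15 against 6 months. Without 1 library the ranges at 21 against 6 months were -0.19 to 0.013 for Sgcd, -0.10 to 0.090 for Sspn, -0.15 to 0.17 for B3galnt2, -0.055 to 0.20 for Des and -0.18 to 0.066 for Hspg2. At 15 against 6 months they were -0.10 to 0.042 for Sgca, -0.040 to 0.078 for Sgcb, -0.048 to 0.11 for Sgcd, -0.046 to 0.21 for Des and -0.23 to 0.020 for Hspg2, and at 21 against 15 months -0.026 to 0.064 for Dmd. The cause was not tested.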
